A study of Mus musculus with 28 samples.

Results

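The Hippo pathway and its output were followed through 10 genes, taken by symbol: Yap1, Wwtr1, Tead1, Lats2, Ajuba, Amotl2, Ccn1, Ccn2, Ankrd1 and Axl. All 10 were listed in each of 3 RNA-seq tables, which hold 56691, 47243 and 57010 genes. The tables cover 12 libraries of sorted mouse hair follicle stem cells at postnatal day 69, with 2 wild-type (WT) mice and 2 Alkbh5 conditional knockout (cKO) mice in each. Alkbh5 removes the methyl mark m6A from RNA. Bulge stem cells, the long-lived reserve of the follicle, were read with SHERRY2, in which a transposase tags RNA/cDNA hybrids directly. Hair germ stem cells, which lie beneath the bulge and divide first when a new hair grows, were read with SHERRY2 and, in other libraries, with SMART-seq, which amplifies full-length cDNA. The labels give 200 ng of RNA per bulge library and 40 ng per hair germ library. They give the genotypes only as wild-type and Alkbh5 cKO, and name no Cre driver, deleted exon or sorting marker. Of the 28 samples, the 16 m6A libraries were not analysed here.

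Hippo signalling is a kinase cascade that keeps 2 related coactivators, YAP (Yap1) and TAZ (Wwtr1), out of the nucleus. Lats2 is one of the kinases that phosphorylates them, Amotl2 tethers them at cell junctions, and Ajuba is a LIM protein that restrains the LATS kinases. When the cascade is quiet, YAP and TAZ bind DNA through TEAD factors such as Tead1 and drive genes that include Ccn1 (Cyr61), Ccn2 (Ctgf), Ankrd1, Axl and Amotl2 itself, so that Amotl2 is both a target and a brake. In the skin epidermis, YAP is known for promoting proliferation of basal stem cells.

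The start regions of these genes are shown because the TEAD factors act through DNA, and the letters GGAATG are the core that TEAD factors are known to bind. RefSeq's promoter table (GRCm38.p6, 250 bases before to 50 after a start) held 8 of the 10 genes, all but Ccn2 and Tead1. GGAATG on either strand was present in 8 of 8, against 16.6% of 27025 genes with a promoter of this length in the table. In Lats2 the match lay 4 bases past the start, and in the others it lay before it. Ccn1 and Wwtr1, which had the 2 largest negative fitted changes in the bulge, are given for the whole stretch before the start, at chr3:145649986-145650235 (minus strand) and chr3:57575911-57576160 (minus strand). Capitals mark GGAATG or its reverse complement CATTCC, and each sequence runs 5′ to 3′ along its gene.
Ccn1: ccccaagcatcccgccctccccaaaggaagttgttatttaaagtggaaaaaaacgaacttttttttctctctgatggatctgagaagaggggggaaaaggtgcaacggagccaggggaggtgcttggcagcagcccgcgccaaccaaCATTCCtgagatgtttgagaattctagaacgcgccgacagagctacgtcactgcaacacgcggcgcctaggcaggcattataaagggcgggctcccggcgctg
Wwtr1: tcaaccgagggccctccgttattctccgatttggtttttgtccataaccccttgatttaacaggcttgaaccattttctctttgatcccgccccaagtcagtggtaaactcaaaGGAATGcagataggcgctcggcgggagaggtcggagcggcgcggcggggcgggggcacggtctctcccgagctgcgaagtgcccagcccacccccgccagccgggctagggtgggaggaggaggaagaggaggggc

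The match began 103 bases before the start in Ccn1 and 136 in Wwtr1. For the genes that carry 1 or 2 matches in a shorter span, only that span is printed: Amotl2 at chr9:102717712-102717771 (plus strand), Ajuba at chr14:54577804-54577863 (minus), Axl at chr7:25788924-25788983 (minus), Yap1 at chr9:8004705-8004764 (minus) and Ankrd1 at chr19:36119948-36120068 (minus).
Amotl2: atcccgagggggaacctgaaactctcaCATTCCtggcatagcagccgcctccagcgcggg
Ajuba: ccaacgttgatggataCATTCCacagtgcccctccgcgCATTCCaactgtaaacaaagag
Axl: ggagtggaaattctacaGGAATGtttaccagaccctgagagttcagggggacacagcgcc
Yap1: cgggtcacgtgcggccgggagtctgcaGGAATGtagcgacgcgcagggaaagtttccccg
Ankrd1: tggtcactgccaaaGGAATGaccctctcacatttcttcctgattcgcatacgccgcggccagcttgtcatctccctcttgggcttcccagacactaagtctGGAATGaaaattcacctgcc

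Ajuba and Ankrd1 each held 2 matches. The same letters were found in 2 of 10 other YAP target genes in the table, 3 of 12 genes of the kinase core, 4 of 9 upstream regulators, 2 of 3 other TEAD genes and 2 of 9 immediate early genes. In all, 7 motifs were searched. The letters TGANTCA (AP-1) and TGACGTCA (CRE) were in 0 of 8 members, against 8.97% and 2.03% of all genes, and the CArG box of SRF was in 0 of 8, against 1.81%. The shorter TGACG, which is part of TGACGTCA, was in 2 of 8 (Ccn1 and Lats2) against 23.1%, a TATA box in 2 of 8 (Ccn1 and Ankrd1) against 14.6%, and a partial CArG box (its first 6 letters) in 6 of 8 against 79.4%. These are matches of letters in a fixed window, and binding was not measured.

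Before the members, the targeted gene was read in every library, since it checks the labels. In the bulge, Alkbh5 stood at 107 and 96.1 CPM (read counts scaled to library size, with TMM factors) in the WT mice. The cKO mice had 4.21 and 2.38 CPM, and Alkbh5 fell by 4.97 on the log2 scale (edgeR quasi-likelihood test, adjusted p = 0.000492). The hair germ SHERRY2 values were 93.0 and 47.4 normalized counts for WT and 19.8 and 13.1 for cKO. The groups were apart, but Alkbh5 did not pass there with limma (log2 change -1.98, adjusted p = 0.724) or in the authors' deposited table (adjusted p = 1.00), and it passed with edgeR on the recovered reads (-2.31, adjusted p = 0.00993). Columns of that table carry a genotype and a number but no library name, so a mouse number there is the number in the column name. In hair germ SMART-seq it stood at 136 and 94.2 CPM in WT and 83.5 and 106 in the libraries labelled cKO, so these groups overlapped and the library labels are written as labels below. Bulge libraries held 14676168 to 21187283 reads in genes and SMART-seq libraries 9001396 to 14416601. Hair germ SHERRY2 libraries held 488648 (WT mouse 2) to 2317407, yet had reads on 38272 to 42826 of 47243 listed genes, against 21171 to 22959 of 56691 in the bulge. The 10 follicle markers (Krt5, Krt14, Krt15, Itga6, Cd34, Lgr5, Sox9, Lhx2, Nfatc1 and Cdh3) summed to 37255 and 34227 CPM in bulge WT and to 26759 and 30458 in bulge cKO, lower in both cKO mice, and 0 of 10 passed the test there. Krt15, a keratin of the bulge named here after its values were seen, stood at 8067 and 8316 CPM in WT and 4736 and 4905 in cKO (log2 change -0.77, SE 0.21, edgeR adjusted p = 0.0982). Of the 10 markers, 7 had a negative fitted change and 3 a positive one, with a median of -0.12 against -0.01 over all genes. Groups were apart for 2 of 10, against 50.9% of all genes. Xist and the Y-linked Ddx3y placed the mice by sex: the bulge dataset had 1 male, WT mouse 2, the hair germ SHERRY2 dataset had 1 male, cKO mouse 1, and in SMART-seq both mice numbered 1 were female and both numbered 2 male. Nothing in the labels says whether mice share a litter. P-values rest on 2 mice per group, and edgeR and limma draw the spread of each gene toward that of other genes.

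Wwtr1, the gene for TAZ, was the only member that passed the test in the bulge. Its level was 147 and 129 CPM in the WT mice and 80.5 and 76.5 CPM in the cKO mice, so that cKO libraries held 56.8% of the WT mean. The groups did not overlap, and the mice of a genotype lay closer together than the genotypes did. Wwtr1 fell by 0.82 on the log2 scale (SE 0.15, edgeR quasi-likelihood test, adjusted p = 0.0332). Without WT mouse 1 the fall was 0.72 and the call was lost (adjusted p = 0.0685). With any other library left out, the adjusted p was 0.017 to 0.0487. Over all 15672 genes tested, 3.04% passed in either direction, 1.6% as lower and 1.44% as higher, and 1 of 10 members is to be read against those shares.

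Yap1, the gene for the sister coactivator, stood at 343 and 313 CPM in WT and 325 and 353 CPM in cKO. The cKO values lay within and just above the WT values, and the fitted change was 0.05 (SE 0.15, adjusted p = 0.907). Levels per length put the coactivators side by side. In the authors' FPKM, which divide reads by exonic length and by the reads of the library, Yap1 was at 34.2 and 32.4 in WT and 37.2 and 40.5 in cKO, and Wwtr1 was at 28.4 and 25.9 in WT and 17.8 and 17.0 in cKO. In each WT library Yap1 and Wwtr1 were near each other, with a ratio of Yap1 to Wwtr1 of 1.20 and 1.25. In the cKO libraries the ratio was 2.09 and 2.38, above both WT values. In hair germ SHERRY2 it was 0.44 and 0.56 in WT and 0.57 and 0.54 in cKO. In SMART-seq it was 1.53 and 1.48 in WT and 1.27 and 1.74 in the libraries labelled cKO. The ratio thus differed between the 2 datasets of hair germ, and it is compared only within a dataset. Since the FPKM are not scaled by TMM, their median fold over all genes tested lies 0.17 higher on the log2 scale than that of CPM, and ratios within a library do not depend on this.

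**Figure D1:**
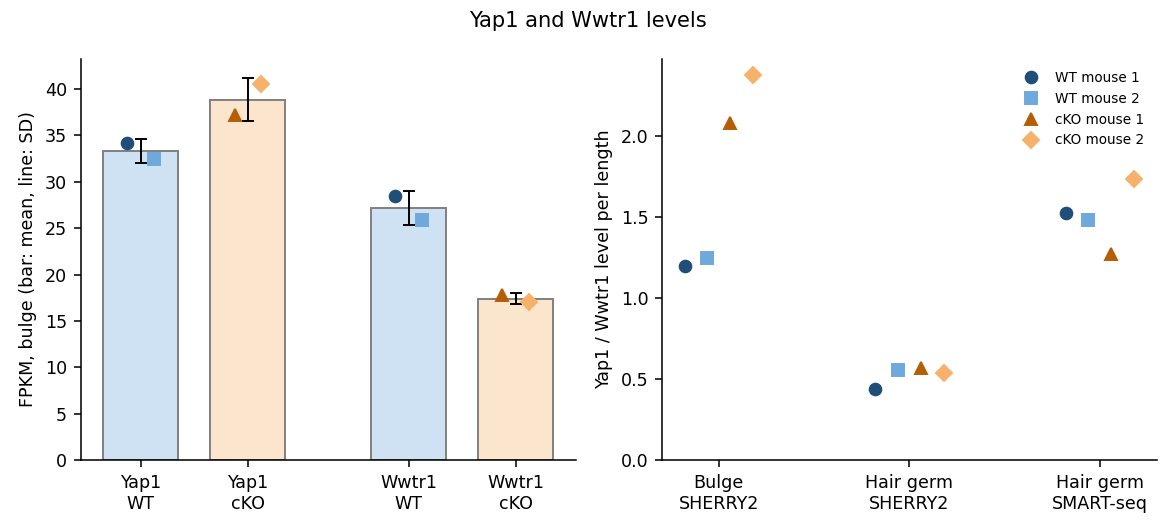
Left, FPKM of Yap1 and Wwtr1 in the 4 bulge libraries, with the mean of each genotype as a bar, the SD as a line and each mouse as a symbol. Right, the ratio of Yap1 to Wwtr1 per length in each of the 12 libraries: the bulge cKO libraries (2.09 and 2.38) lie above the bulge WT libraries (1.20 and 1.25), while the genotypes overlap in both hair germ datasets.

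Tead1, the DNA-binding partner, stood at 79.1 and 61.2 CPM in WT and 99.6 and 82.3 CPM in cKO. The cKO mice were above the WT mice, but cKO mouse 2 was above WT mouse 1 by little, and the change of 0.37 did not pass (SE 0.18, adjusted p = 0.326). Lats2, the kinase, was the steadiest member, at 32.7 and 31.3 CPM in WT and 31.4 and 34.0 in cKO (log2 change 0.03, SE 0.16, adjusted p = 0.946).

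Ccn1, a secreted matrix protein and a classic YAP target, was the member with the largest difference between the bulge groups. It stood at 2819 and 1747 CPM in WT and at 870 and 337 CPM in cKO. The groups did not overlap, and the WT mean was 3.78 times the cKO mean, but the mice of each genotype also differed widely. The fitted change was -1.92 (SE 0.44) with an adjusted p of 0.0642, and Ccn1 did not pass. The change was -2.73 without cKO mouse 1 and -1.40 without cKO mouse 2, in fits that leave 1 cKO library. Without WT mouse 1 it was -1.54, and without WT mouse 2 it was -2.24.

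Ccn2, its close relative, followed another order. It stood at 755 and 402 CPM in WT and 501 and 196 CPM in cKO, so that cKO mouse 1 lay above WT mouse 2 and the groups overlapped. Its change of -0.73 did not pass (SE 0.44, adjusted p = 0.429). Without cKO mouse 1, a fit that leaves 1 cKO library, it was -1.53. Per length, Ccn1 was the highest of the 10 members by its WT mean in each dataset, although in SMART-seq this rested on WT mouse 1 (248 CPM per kb), since WT mouse 2 had 24.6 for Ccn1 and 25.6 for Ajuba. In the bulge its WT mean was 1059 FPKM, followed by Ccn2 at 189, Ajuba at 63.8, Axl at 39.8, Yap1 at 33.3, Wwtr1 at 27.2, Amotl2 at 12.1, Tead1 at 4.85, Lats2 at 4.32 and Ankrd1 at 1.54. In the 2 WT mice, neighbours in this order did not overlap except for Tead1 with Lats2, which differed by little (5.38 and 4.32 against 4.33 and 4.30).

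Amotl2, Ajuba and Axl were each higher in both cKO mice than in both WT mice of the bulge, without passing the test. Ajuba, the LIM protein that restrains LATS, stood at 266 and 229 CPM in WT and 357 and 368 in cKO (log2 change 0.55, SE 0.16, adjusted p = 0.112). Axl, a receptor tyrosine kinase and YAP target, stood at 236 and 190 CPM in WT and 302 and 333 in cKO (0.57, SE 0.17, adjusted p = 0.119). Amotl2, the junction protein, stood at 92.0 and 69.9 CPM in WT and 110 and 118 in cKO (0.49, SE 0.17, adjusted p = 0.178). With DESeq2 in place of edgeR, Ajuba and Axl passed (adjusted p = 0.0213 and 0.0251), when 8.91% of all genes with an adjusted p passed too. With no filter on low counts, 4 of 10 members passed (Axl, Ccn1, Ccn2 and Wwtr1), when 5.75% of all genes did.

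Taken over the 10 members, the bulge groups were apart for 6: Amotl2, Tead1, Ajuba and Axl lay higher in cKO, and Ccn1 and Wwtr1 lower. Of all genes tested, 50.9% had groups apart (24.7% higher and 26.2% lower), and 6 of 10 is near that share. At an unadjusted p under 0.05 there were 5 of 10 members (Ajuba, Amotl2, Axl, Ccn1 and Wwtr1), against 18.9% of all genes. The median fitted change of the members was 0.04, against -0.01 over all genes. The known YAP targets among the members did not share a sign in the bulge: Ccn1, Ccn2 and Ankrd1 had negative fitted changes, and Amotl2 and Axl positive ones.

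**Figure D2:**
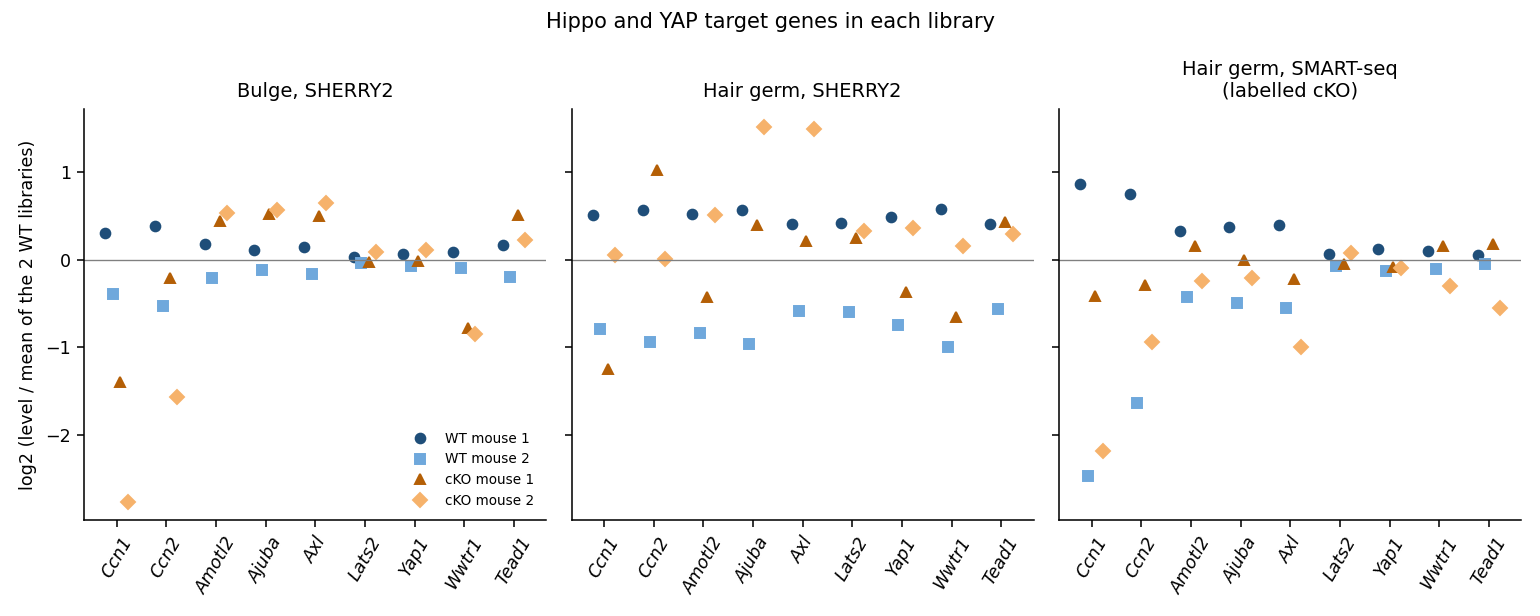
Level of 9 members in each library as log2 of the ratio to the mean of the 2 WT libraries of the same dataset (CPM, or normalized counts for hair germ SHERRY2), with 1 symbol per mouse; Ankrd1 is left out because it was at 0 in some libraries. In the bulge, Ccn1 and Wwtr1 lie below both WT mice in both cKO mice. In hair germ SHERRY2, WT mouse 2 (squares) is lowest for 8 members of 10, and in SMART-seq both mice numbered 1 (circles and triangles) lie above both numbered 2 for all members shown but Lats2.

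The immediate early genes, which are switched on rapidly when cells are stimulated, were read beside Ccn1 and Ccn2. All 12 (Fos, Fosb, Jun, Junb, Egr1, Egr2, Egr3, Ier2, Ier3, Atf3, Nr4a1 and Dusp1) lay lower in both cKO mice than in both WT mice of the bulge, and 5 passed the test, all lower, with a median change of -2.01. Over all genes, 26.2% were apart and lower, 1.6% passed as lower, and the median was -0.01. Egr3 fell by 2.05 (SE 0.20, adjusted p = 0.00374) and Egr2 fell by 2.72 (SE 0.33, adjusted p = 0.0085). Their summed level was 40484 and 24467 CPM in WT and 12291 and 3114 CPM in cKO. Ccn1 had the same order of libraries, and came to 6.96%, 7.14%, 7.08% and 10.8% of that sum in WT mouse 1, WT mouse 2, cKO mouse 1 and cKO mouse 2. For Ccn2 the same shares were 1.87%, 1.64%, 4.08% and 6.29%, higher in both cKO mice. The part of the immediate early genes in the Ccn1 difference was not tested.

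**Figure D3:**
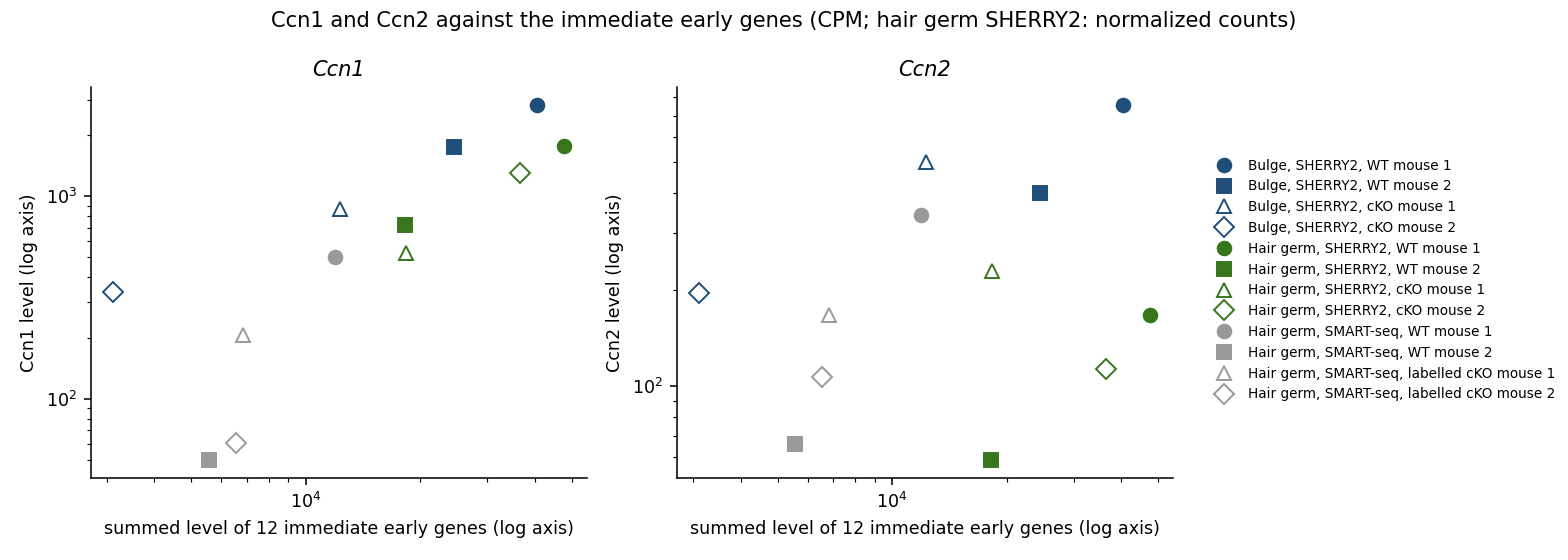
Level of Ccn1 (left) and Ccn2 (right) against the summed level of 12 immediate early genes in each of the 12 libraries, on log axes; colours give the dataset, filled symbols WT and open symbols cKO. Units are CPM, or normalized counts for hair germ SHERRY2, so only libraries of 1 colour can be compared; the bulge libraries run from 3114 to 40484 CPM on the lower axis and from 337 to 2819 CPM for Ccn1, in the same order.

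Ankrd1, a muscle ankyrin repeat protein used as a YAP readout in many cell types and abundant in heart muscle, had most of its bulge reads in 2 libraries of 4. WT mouse 1 held 189 reads (9.66 CPM) and cKO mouse 2 held 115 (5.47 CPM), while WT mouse 2 held 0 and cKO mouse 1 held 1 (0.0619 CPM). The spread was thus within each genotype, and the fitted change was -0.80 (SE 1.65, edgeR adjusted p = 0.845). It turned to 8.58 without WT mouse 1 and to 0.18 without cKO mouse 1, and was -6.16 without cKO mouse 2. Where those fits leave a group with 0 or 1 read, the size depends on the prior count of the model. A list of 16 genes of heart muscle, put together after these values were seen and so given with no test, showed the same libraries. Its summed level was 151 CPM in WT mouse 1 and 95.1 in cKO mouse 2, against 5.19 in WT mouse 2 and 13.4 in cKO mouse 1, where Tnnt2 alone made 4.05 and 11.1. Myh6, the heart myosin heavy chain, stood at 31.1, 0.0711, 0.0619 and 16.6 CPM in WT mouse 1, WT mouse 2, cKO mouse 1 and cKO mouse 2, and Ankrd1 came to 0.310 and 0.329 of Myh6 in WT mouse 1 and cKO mouse 2. In cKO mouse 1 each of the pair had 1 read. The skeletal muscle genes Myh1, Myh2, Myh4 and Tnnt3 summed to 0.213 to 1.05 CPM.

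**Figure D4:**
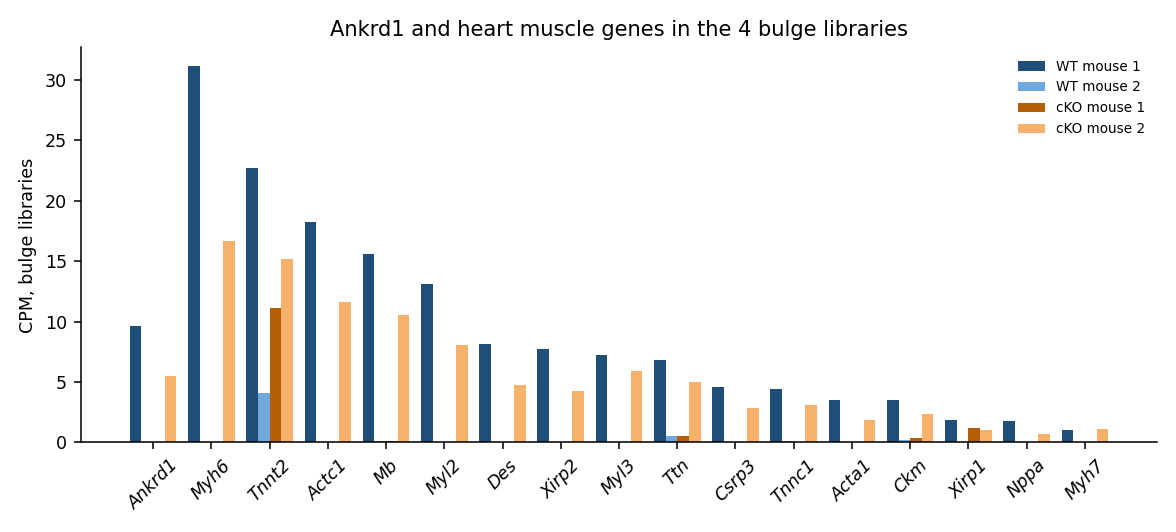
Level in CPM of Ankrd1 and of 16 heart muscle genes in the 4 bulge libraries, 1 bar per library. Ankrd1 and most heart genes stand high in WT mouse 1 and cKO mouse 2 (Ankrd1 at 9.66 and 5.47 CPM) and at or near 0 in WT mouse 2 and cKO mouse 1; Tnnt2 and Xirp1 are also seen in cKO mouse 1.

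Because those libraries belong to opposite genotypes, the other members were read once more in WT mouse 2 and cKO mouse 1 alone, a comparison of 2 libraries with no test, added after seeing the data. WT mouse 2 was male and cKO mouse 1 female, so genotype and sex coincide in this pair and cannot be told apart. The log2 ratio of cKO to WT was -1.01 for Ccn1, 0.32 for Ccn2, -0.68 for Wwtr1 and 0.70 for Tead1. It was 0.65 for Amotl2, 0.64 for Ajuba, 0.66 for Axl, 0.05 for Yap1 and 0.0038 for Lats2. The sign was the opposite of that in the fit for Ccn2, and the same for all the others.

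Markers of other cell types were read beside these values. Immune markers (Ptprc, Cd74, H2-Aa, H2-Ab1 and Cd207) summed to 254 and 199 CPM in WT and 86.4 and 47.1 in cKO, and 3 of 5 passed, all lower, against 1.6% of all genes. Fibroblast markers summed to 9.81 to 23.3 CPM, endothelial ones to 0.433 to 3.42, muscle and pericyte ones to 3.63 to 13.0 and melanocyte ones to 9.72 to 28.0. In these 4 lists 0 genes passed, and each sum overlapped between the genotypes. The part of the immune and follicle markers in the Wwtr1 and Axl values was not tested. In these bulk libraries, fewer cells of a type and less RNA per cell cannot be told apart.

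In hair germ SHERRY2, no member passed. With limma on log2(normalized count + 1), 0 of 10 passed, 0 had an unadjusted p under 0.05 (4.62% of all genes did), and 0 passed with edgeR on the recovered reads or in the authors' deposited table. Over all genes, 3 of 38953 passed (0.0077%), and 0.377% passed with edgeR. Wwtr1 stood at 180.0 and 60.1 normalized counts in WT and 76.3 and 134 in cKO (log2 change -0.04, SE 0.77, limma adjusted p = 0.993), and Yap1 at 153 and 64.8 in WT and 84.3 and 140 in cKO (0.12, SE 0.77). For both genes, in these normalized counts, 1 WT mouse lay above the 2 cKO mice and 1 below. With edgeR on the recovered reads, which uses TMM factors instead, the change was -0.43 for Wwtr1 and -0.21 for Yap1, and neither passed. Ccn1 stood at 1770 and 719 in WT and 526 and 1297 in cKO (-0.45, SE 1.83), and Ccn2 at 166 and 58.5 in WT and 228 and 113 in cKO (0.69, SE 0.81). Their changes with edgeR on the recovered reads were -0.71 and 0.43. With limma the SE follows a trend with level, from 0.58 for Ankrd1 to 1.83 for Ccn1 among the members. It reached 5.87 for Fos, so an SE there is not the spread of that gene's mice alone.

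The largest positive values there were again for Ajuba and Axl, as in the bulge, with cKO mouse 2 the highest library for both. Ajuba stood at 215 and 74.3 normalized counts in WT and 191 and 413 in cKO (log2 change 1.14, SE 0.93, limma adjusted p = 0.970), and Axl at 85.1 and 42.7 in WT and 74.1 and 180.0 in cKO (0.93, SE 0.73, adjusted p = 0.970). Amotl2 ranged from 55.3 to 142, Tead1 from 52.2 to 104 and Lats2 from 23.7 to 47.9. In normalized counts WT mouse 2, the shallowest library, was the lowest of the 4 for 8 of 10 members, against 33.8% of all genes. The authors' size factors did not follow the reads in genes, so the order of libraries depends on them. WT mouse 1 and cKO mouse 1 held 1513001 and 1526070 reads, with factors of 1.02 and 1.36. WT mouse 2 held 488648 with a factor of 0.632, and cKO mouse 2 held 2317407 with a factor of 1.22. Groups of normalized counts were apart only for Ankrd1, at 12.7 and 12.6 in WT and 6.60 and 8.98 in cKO (8 to 13 reads per library), against 32.8% of all genes. Overlap was not read on another scale. The 16 heart genes summed to 425 to 550.2 normalized counts in these libraries, with the genotypes overlapping. The skeletal muscle genes, at 0.213 to 1.05 CPM in the bulge, summed to 51.4 to 123 normalized counts here. The Ankrd1 values thus lie among low counts spread over many genes, and the source of such counts was not tested. The immune markers summed to 403 to 493, the fibroblast markers to 107 to 196 and the melanocyte markers to 47.4 to 162, and 0 of these markers passed. The 12 immediate early genes summed to 47681 and 18164 normalized counts in WT and 18292 and 36495 in cKO, and as for Ccn1, WT mouse 1 and cKO mouse 2 were the higher libraries. The 10 follicle markers also stood higher in these libraries, at 32529 and 17165 in WT and 16255 and 44842 in cKO. This order is thus not particular to Ccn1 and the immediate early genes, and the part of the size factors in it was not tested.

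In hair germ SMART-seq, 9 members were tested and 0 passed (edgeR), with 0 at an unadjusted p under 0.05 (1.02% of all genes were) and 0 by DESeq2. Of all 17547 genes, 0% passed in edgeR. Ankrd1 had 2 reads in WT mouse 2 and 0 in the other libraries, and was not tested. A count of 0 there allows up to 3 reads of 9001396 or more. Of the 16 heart genes, 7 had no read in any of these libraries, Myh6 among them. Wwtr1 stood at 90.8 and 78.7 CPM in WT and 94.8 and 69.0 in the libraries labelled cKO (log2 change -0.05, SE 0.23), and Yap1 at 269 and 226 in WT and 233 and 232 (-0.09, SE 0.20).

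Within SMART-seq the members were ordered by mouse number. Ccn1 stood at 501 CPM in WT mouse 1 and 207 in the library labelled cKO mouse 1, against 49.7 in WT mouse 2 and 60.7 in the library labelled cKO mouse 2. Ccn2 stood at 343 and 167 CPM in the mice numbered 1 and 66.1 and 107 in those numbered 2, and Axl at 206 and 135 against 107 and 78.3. The immediate early genes summed to 11922 and 6823 CPM in the mice numbered 1 and 5561 and 6559 in those numbered 2. In 8 of 9 tested members (all but Lats2) both mice numbered 1 lay above both numbered 2, against 22.8% of all genes. The groups by genotype label were apart for 0 of 9, against 24.3%. Number and sex coincide here and cannot be told apart, and the melanocyte markers moved with them too, at 24.8 and 23.7 CPM in the mice numbered 1 and 121 and 166 in those numbered 2. Fibroblast markers ran the other way, at 93.0 and 52.0 CPM against 22.0 and 19.0. Follicle markers summed to 18446 and 18854 CPM in WT and 14156 and 22356 in the libraries labelled cKO. Immune markers summed to 39.9 and 22.1 CPM in WT and 38.4 and 129 in the libraries labelled cKO, with 5 of 5 fitted changes positive (median 1.48), and 0 of 5 passed. Their part in the member values was not tested.

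**Figure D5:**
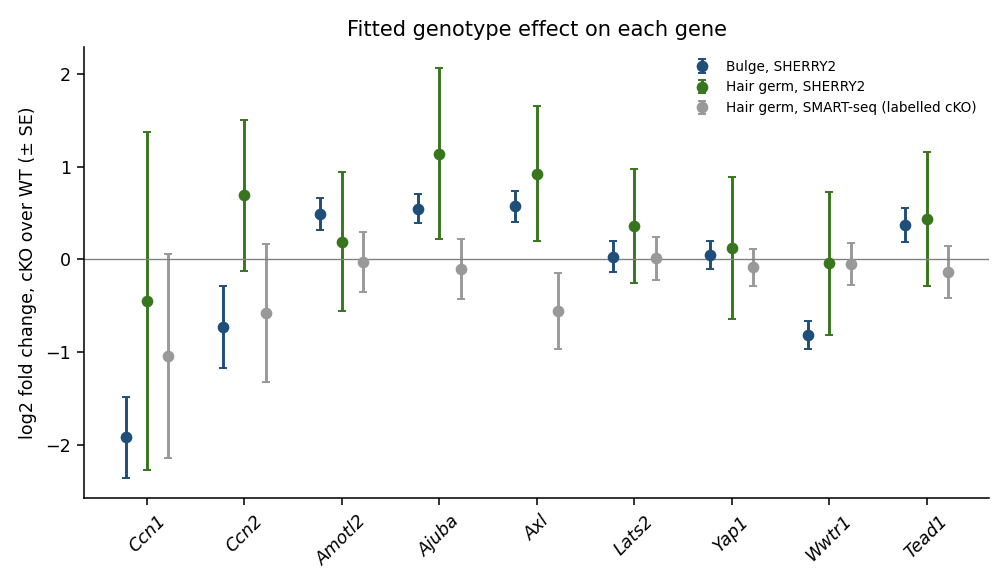
Fitted log2 fold change of 9 members, cKO over WT, with its standard error, in the bulge (edgeR), hair germ SHERRY2 (limma on log2 of the normalized count + 1) and hair germ SMART-seq (edgeR, by its labels). Only Wwtr1 in the bulge (-0.82) passed the test. The hair germ SHERRY2 bars are the longest, up to 1.83 for Ccn1. They follow the limma trend of spread with level, not the spread of that gene's mice alone.

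Whether the genotype effect itself differed between bulge and hair germ was tested with edgeR in models of 8 libraries, through the product of dataset and genotype. Against hair germ SHERRY2, 0 of 10 members passed (0.119% of all genes did), and 0 had an unadjusted p under 0.05. For Wwtr1 the hair germ effect minus the bulge effect was 0.27 (SE 0.48, adjusted p = 1.00), where the median over all genes was -0.20. Against SMART-seq, where the genotype is the label that Alkbh5 did not bear out, 0 of 10 passed (0.0413% of all genes did). There the difference by label was 0.76 for Wwtr1 (SE 0.27, unadjusted p = 0.0242, adjusted p = 0.723) and -1.14 for Axl (SE 0.49, unadjusted p = 0.0497, adjusted p = 0.745). So the call of Wwtr1 in the bulge and its lack in the hair germ were not shown to differ.

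The rest of the pathway was read from lists chosen by role. Of the 14 genes of the kinase core and its partners (Stk3, Stk4, Sav1, Lats1, Mob1a, Mob1b, Nf2, Wwc1, Wwc2, Frmd6, Taok1, Taok2, Taok3 and Map4k4), 0 passed in the bulge, and 10 of 14 had a positive fitted change, with a median of 0.19. Mob1b, a LATS cofactor, stood at 70.4 and 64.8 CPM in WT and 83.9 and 93.7 in cKO (log2 change 0.39, SE 0.15, adjusted p = 0.204), and Sav1, the scaffold of the upstream kinases, at 37.5 and 34.7 in WT and 49.0 and 42.9 in cKO (0.35, SE 0.16, adjusted p = 0.308). Of 13 upstream regulators and inhibitors, 12 were tested and 0 passed, 6 positive and 6 negative. Fat1, an atypical cadherin upstream of Hippo, stood at 287 and 156 CPM in WT and 503 and 441 in cKO (1.09, SE 0.27, adjusted p = 0.0808). With 1 library left out in turn the change was 0.71 to 1.59. Fat1 passed with DESeq2 (adjusted p = 0.000341), when 8.91% of all genes with an adjusted p passed too. Rassf1, a scaffold that binds the upstream kinases, stood at 53.5 and 32.4 CPM in WT and 24.7 and 26.9 in cKO (-0.74, SE 0.25, adjusted p = 0.156).

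Of the other TEAD genes and cofactors, Tead2, Tead3, Tead4 and Vgll3, 0 of 4 passed in the bulge. Vgll3 had a fitted change of 0.27 (SE 0.19, adjusted p = 0.499) and Tead2 of -0.66 (SE 0.57, adjusted p = 0.591). Of 16 further genes of a published YAP and TAZ target signature, 15 were tested in the bulge, since Foxf2 had no reads. Of these, 2 passed in opposite directions, against 3.04% of all genes (1.44% higher and 1.6% lower). Igfbp3, a secreted binding protein for insulin-like growth factors, stood at 794 and 695 CPM in WT and 112 and 65.4 CPM in cKO, and fell by 3.07 on the log2 scale (SE 0.27, adjusted p = 0.0028). Myof, a membrane repair protein, stood at 121 and 95.4 CPM in WT and 184 and 198 CPM in cKO, and rose by 0.82 (SE 0.17, adjusted p = 0.0472), a call lost without WT mouse 2 (0.65, adjusted p = 0.162). In all, 8 of the 15 had a positive fitted change and 7 a negative one, with a median of 0.13 against -0.01 for all genes. In hair germ SHERRY2 and in SMART-seq, 0 genes of these 4 lists passed. Igfbp3 stood at 523 and 242 normalized counts in WT and 81.4 and 61.2 in cKO of hair germ SHERRY2, with the groups apart (log2 change -2.32, SE 0.87, limma adjusted p = 0.970). In SMART-seq its groups overlapped (log2 change -0.78, SE 0.66). Fjx1, a secreted regulator of Fat signalling named here after its values were seen, stood higher in cKO of both SHERRY2 datasets. Its values were 26.4 and 19.0 normalized counts in WT and 82.1 and 128 in cKO of hair germ SHERRY2 (log2 change 2.15, SE 0.64, limma adjusted p = 0.630). In the bulge they were 18.2 and 20.6 CPM in WT and 29.5 and 34.9 in cKO (0.73, SE 0.19, adjusted p = 0.0849). In SMART-seq the Fjx1 groups overlapped, at 14.6 and 20.9 CPM in WT and 13.9 and 22.8 in the libraries labelled cKO (0.04). Of the 16 genes, 4 had an unadjusted limma p under 0.05 in hair germ SHERRY2, against 4.62% of all genes. Fjx1 was higher in cKO, and Igfbp3, F3 (-1.82, groups overlapping) and Foxf2 (-1.76, 0 to 6 reads per library) were lower. Over all genes, 16.4% were apart and higher and 16.4% apart and lower in hair germ SHERRY2.

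The bulge table places Ccn1 on chromosome 3 at 145352731 to 145355736 (minus strand) and Wwtr1 on the same chromosome at 57363070 to 57483331 (minus strand). It names no build, so these positions and those of the promoters are not on 1 scale. Of the genes that overlap a member in that table, all with a count were small next to it. Gm16016, on the strand opposite to Wwtr1, held 36 reads over the 4 bulge libraries, against 7606 for Wwtr1.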

How the data were processed

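The 12 RNA-seq libraries were read from 3 deposited tables. The authors' bulge table gives a read count and an FPKM per gene, and their SMART-seq table a read count per gene. For hair germ SHERRY2 the deposited signal is the read count divided by a size factor per library, by the authors: in each column 100% of values were whole reads within 0.01, with factors of 0.632 to 1.36. That table also holds the authors' log2 fold change, Wald score and p-value for each gene. Per the submitters' processing notes, STAR, featureCounts and DESeq2 were among the tools, with GRCm38 and mm10, and for the SMART-seq batch also HISAT2 and GRCm39. No tool version or strand setting is stated there. Hair germ SHERRY2 columns were matched to a genotype through the column names and tied to a group only; the number in a name is used as the mouse number.

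The bulge and the SMART-seq counts were each tested with edgeR 4.0.16 (TMM, filterByExpr, quasi-likelihood), and hair germ SHERRY2 values with limma 3.58.1 (intensity trend, pseudocount 1, mean of at least 1), as its values are not counts. Tests were two-sided, with Benjamini-Hochberg adjustment over all genes tested at 0.05. Alternatives included DESeq2 1.42.0, RLE scaling, no filter, a pseudocount of 0.1, edgeR on recovered reads and leaving out each library. The scripts were tested on simulated counts. Hair germ levels per length used the exonic lengths of the bulge table. The members and lists were chosen with earlier results of these data known. Most genes outside the members were named by rule: Alkbh5, each pathway gene past the threshold, and otherwise the 2 of lowest p in the bulge for each list. Krt15, Fjx1, F3, the heart and skeletal muscle genes, and those named for their overlap with a member, were chosen after values were seen.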

Additional observations from a re-analysis of the deposited data

How the results depend on the processing

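The count of members past the threshold in the bulge was 1 with TMM or RLE, 4 with no filter (Axl, Ccn1, Ccn2 and Wwtr1), 3 with DESeq2 (Ajuba, Axl and Wwtr1), and 0 to 3 with 1 library left out: 0 without WT mouse 1, 1 without WT mouse 2, and 3 without cKO mouse 1 or without cKO mouse 2. Without a filter, 5.75% of all genes passed, and Ccn1 had an adjusted p of 3.47e-14. The mouse number as a replicate block gave 2 (Ccn1, -2.04, adjusted p = 0.00758, and Wwtr1, with 506 calls over all genes) and took the call from Myof (adjusted p = 0.0508). The numbers are shared by name only: deviations of same-numbered mice from their group means correlated across genes at 0.01 in the bulge, -0.21 in hair germ SHERRY2 and 0.23 in SMART-seq, from 2 pairs each. In hair germ SHERRY2, SMART-seq and the SHERRY2 interaction, the count was 0 under every alternative run. In the SMART-seq interaction it was 1 with no filter (Axl, -1.15, adjusted p = 0.0354). Over all genes, bulge calls numbered 476, but 1549 with no filter, 1191 of 13367 with DESeq2, 218 without WT mouse 2, 1601 without cKO mouse 1 and 733 without cKO mouse 2. For hair germ SHERRY2 they numbered 3, but 63 with edgeR, 5 with the block, 105 without WT mouse 2, 13 without cKO mouse 2 and 0 in the others. For SMART-seq they numbered 0, but 30 with no filter. For the interactions they numbered 31 (11 with no filter, 32 to 594 with 1 library left out) and 8 (513 with no filter, 0 to 18).

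Some signs turned, and the cause was not tested. With edgeR, hair germ SHERRY2 Amotl2 was -0.14 and Yap1 -0.21. In SMART-seq, Amotl2 was 0.0011 with the block. Ccn2 was 0.32 in bulge WT mouse 2 and cKO mouse 1 alone. With 1 library left out, the bulge ranges that crossed 0 were Ankrd1 -6.16 to 8.58, Yap1 -0.026 to 0.14 and Lats2 -0.038 to 0.12. In hair germ SHERRY2 they were Ccn1 -1.10 to 0.20, Ccn2 -0.053 to 1.44, Amotl2 -0.48 to 0.86, Yap1 -0.49 to 0.73, Wwtr1 -0.83 to 0.74, Tead1 -0.035 to 0.92 and Lats2 -0.13 to 0.85. In SMART-seq they were Alkbh5 -0.52 to 0.0032, Ccn1 -2.17 to 1.43, Ccn2 -1.32 to 1.05, Amotl2 -0.35 to 0.39, Yap1 -0.20 to 0.041, Wwtr1 -0.28 to 0.16, Tead1 -0.53 to 0.18, Lats2 -0.055 to 0.090 and Ajuba -0.46 to 0.40. For the differences between datasets they were Wwtr1 -0.10 to 0.87 (SHERRY2) and Ccn1 -0.26 to 3.34 (SMART-seq). Where 1 library was left in a group, it was assumed to vary like the other group. Depth limits hair germ SHERRY2 most, and values near 10 normalized counts there rest on about 10 reads.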
